A study of Mus musculus with 10 samples.

Results

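Soat1 and 9 other genes that make, split, move or export cholesterol and its esters were followed across 10 mouse lung tumors. The members are the rows of the joint count table whose symbol is Soat1, Soat2, Nceh1, Lipa, Npc1, Npc2, Abca1, Abcg1, Scarb1 or Stard4. They make up 10 of the 39017 genes in the table, and all 10 were among the 16216 genes that passed the filter on low counts. Soat1 was chosen by its value in these same tumors. It is among the 28 genes (0.173% of those tested) that limma called different between the groups at an adjusted p under 0.05. Its own difference is therefore given as a description, with no test. The other 9 members were chosen for their place around Soat1 and are read from the fit across all genes.

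The tumors came from male mice of the C57BL/6 strain, 5 labelled KP and 5 labelled KPG1, numbered here as the labels number them. In both groups an adenovirus with Cre driven by the SPC promoter was delivered through the trachea, so that recombination starts in cells that make surfactant protein C. KPG1 mice were homozygous for floxed Slc2a1 (fl/fl), the gene of the glucose transporter Glut1. For the KP controls one label gives fl/wt and another gives WT, so KP stands for the control group of the labels. Every tumor was collected at 18 weeks and 6 days after initiation and depleted of cells with the leukocyte marker CD45 by magnetic beads. The fraction can still hold stromal cells and epithelial cells in which Cre did not act. The labels do not say whether each library came from its own mouse, so p-values measure only the spread between these samples. Libraries held 32427029 to 49534284 counts. Slc2a1 was lower in every KPG1 library (40.8 to 66.8 CPM, the count scaled to a fixed library total) than in every KP library (71.7 to 127 CPM). The limma value for this was -1.01 in log2 (SE 0.20, adjusted p 0.0675).

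Markers of cell types were examined before the members. The alveolar type 2 cell is the surfactant-making cell in which the SPC promoter is active. Its 12 markers summed to 19798 to 67360 CPM in KP and 51238 to 92529 CPM in KPG1. All 12 were fitted higher in KPG1, 4 with an unadjusted p under 0.05 (beside 5.26% of all genes) and 0 called by limma. Over all genes tested, 8547 of 16216 were fitted higher and 7669 lower in KPG1. The 6 epithelial markers summed to 4309 to 6225 CPM in KP and 3183 to 3929 CPM in KPG1, without overlap. Of the 6, 5 had a lower fitted value in KPG1, 4 of these with an unadjusted p under 0.05 (beside 6.31% of all genes). For 3 of the 6 all KPG1 values were below all KP values (beside 1.76% of all genes), and 0 were called (smallest limma adjusted p 0.0501). The 10 endothelial markers summed to 411 to 1233 CPM in KP and 575 to 1723 CPM in KPG1. The 10 fibroblast markers summed to 787 to 3037 CPM in KP and 979 to 1820 CPM in KPG1, and 9 of them were fitted higher in KPG1 (median log2 fold change 0.47, 2 with an unadjusted p under 0.05, 0 called). The 16 macrophage markers summed to 625 to 3944 CPM and 2219 to 6466 CPM, of which Lyz2, also made by alveolar type 2 cells, gave most, and Ptprc, the gene of CD45 itself, had 5.21 to 10.97 CPM. Most single macrophage markers ran opposite to their sum. Of the 16, 14 were fitted lower in KPG1 and 2 higher (median log2 fold change -0.27), 2 of the lower had an unadjusted p under 0.05, and 0 were called. The 12 proliferation genes were lowest in KP 5, at 173 CPM against 476 to 632 CPM in the other KP libraries and 441 to 720 CPM in KPG1. No marker list had a gene without counts in all libraries, and Cyp17a1, which marks steroid-making cells, had at most 1 count. The part of these cell shares in the values below was not tested. In bulk tissue, fewer cells of a type and less RNA per cell cannot be told apart.

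Free cholesterol is a component of membranes, and a cell that holds more than its membranes need can store it as cholesteryl ester in lipid droplets. The ester is made at the endoplasmic reticulum by the acyltransferases Soat1, found in most tissues, and Soat2, best known from liver and intestine. Esters are split again by Nceh1 at the endoplasmic reticulum and, when they arrive inside lipoproteins, by the acid lipase Lipa in lysosomes. Npc2 and Npc1 hand the freed cholesterol out of the lysosome, Stard4 carries sterol through the cytosol, and Abca1, Abcg1 and Scarb1 pass it to lipoproteins outside the cell. In the alveolar type 2 cell, cholesterol is also a constituent of the surfactant packed into lamellar bodies.

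Soat1 (ENSMUSG00000026600, chromosome 1, 156424525 to 156474331, minus strand, mm10) was more abundant in KPG1 tumors. Its level was 263, 281, 243, 197 and 180 CPM in KP 1 to KP 5. In KPG1 1 to KPG1 5 it was 501, 388, 424, 420 and 399 CPM. The lowest KPG1 tumor was above the highest KP tumor, and within KP the 2 lowest values were those of KP 4 and KP 5. KP averaged 233 ± 43.1 CPM and KPG1 averaged 426 ± 44.3 CPM (SD, n = 5 each), a ratio of 1.83. On the log2 scale of the fit the difference was 0.89 (SE 0.15). It lay between 0.76 and 1.02 under all 18 alternative settings of the fit, in 12 of which the call it was chosen by was absent. Of all genes tested, 170 (1.05%) had every KPG1 value above every KP value. The values behind Soat1 were 7851 to 22926 counts per library, so counting error was small beside the spread between tumors. Its spread within groups, an SD of 0.22 in log2 CPM, was narrow, at percentile 20.4 of all genes tested. A narrow spread favors the call by which Soat1 was chosen, so this percentile is a description as well.

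Soat1 shares its position with Gm37648 on the opposite strand, but no exons of the pair touch and Gm37648 is not a row of the count table used here. The epithelial markers also separated the groups, with lower sums in KPG1, and the fitted value of 11 of 12 proliferation genes was higher in KPG1. Their part in the Soat1 difference was not tested. With group means removed, Soat1 followed the endothelial marker sum (r = 0.74, n = 10). As measured, KP 5 was the lowest tumor for that sum and for Soat1 (411 and 180 CPM). KPG1 1 was the highest for both (1723 and 501 CPM), and r without these tumors was not computed. All 10 endothelial markers were fitted higher in KPG1 with 0 called, and the level of Kdr, a receptor of endothelial cells, was 40.7 to 211 CPM. The proliferation sum, again lowest in KP 5, also ran with Soat1 (r = 0.56). The fibroblast marker sum did so less (r = 0.22), but the mean of the fibroblast markers with equal weight for each gene gave r = 0.61. For the endothelial markers, equal weights left r at 0.74. These relations are within the groups and are given as descriptions.

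**Figure D1:**
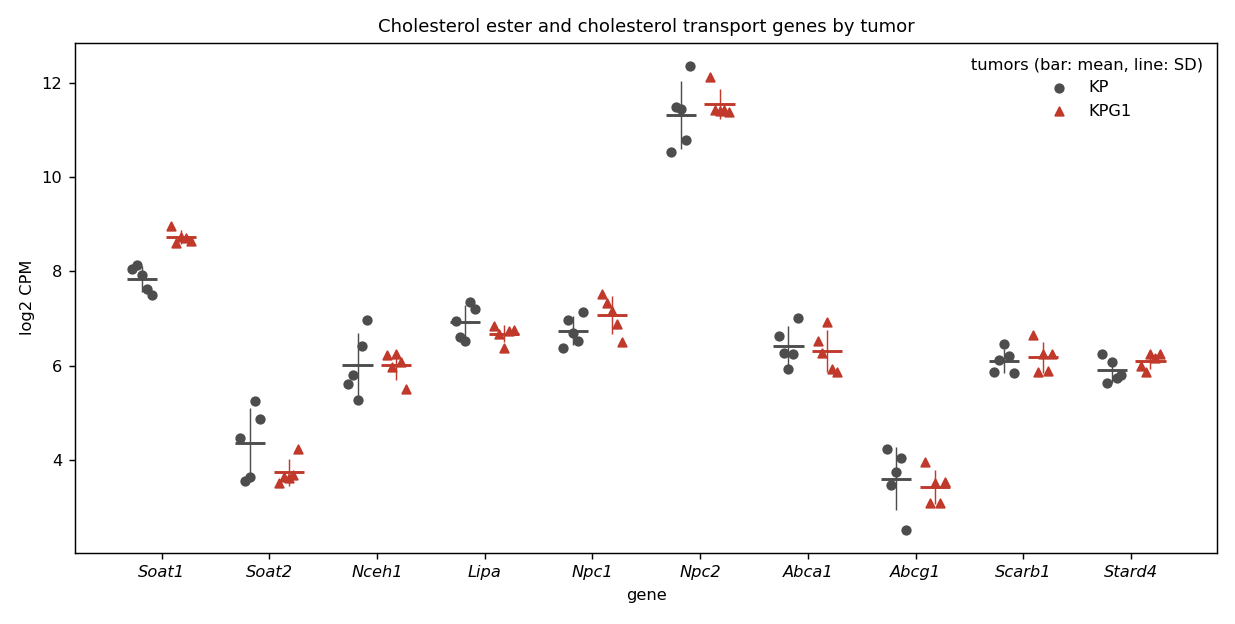
Log2 CPM (vertical axis) of the 10 genes (horizontal axis) in each tumor, with KP as grey circles and KPG1 as red triangles. Horizontal bars are group means and vertical lines the SD (n = 5). For Soat1 every KPG1 tumor is above every KP tumor, while the groups overlap for the other 9 genes.

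The promoter of Soat1 is shown because Soat1 carries the difference, and that of Abca1 because it is the gene here best known as a target of the sterol-sensing receptor LXR. Both run 5′ to 3′ on the strand of the gene, from 250 bases before to 50 bases after the start given by RefSeq on GRCm38.p6, at chr1:156474279-156474578 (minus strand) for Soat1 and chr4:53159846-53160145 (minus strand) for Abca1. Capitals mark CCAAT and GGGCGG in Soat1, and in Abca1 CACGTG and the receptor elements GGTTA and GGTCA with 5 bases between them, which read on the opposite strand.
Soat1: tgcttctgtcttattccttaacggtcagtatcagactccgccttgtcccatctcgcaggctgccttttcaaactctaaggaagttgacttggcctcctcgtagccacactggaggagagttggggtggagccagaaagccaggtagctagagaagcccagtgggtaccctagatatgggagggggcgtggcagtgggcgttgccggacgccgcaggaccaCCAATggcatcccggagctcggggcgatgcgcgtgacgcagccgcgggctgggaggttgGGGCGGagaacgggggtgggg
Abca1: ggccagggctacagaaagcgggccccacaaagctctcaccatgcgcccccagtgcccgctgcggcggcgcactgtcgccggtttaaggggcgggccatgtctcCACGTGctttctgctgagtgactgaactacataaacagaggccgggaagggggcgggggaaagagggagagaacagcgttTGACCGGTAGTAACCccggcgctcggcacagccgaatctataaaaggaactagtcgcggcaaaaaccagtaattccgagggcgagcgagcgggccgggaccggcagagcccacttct
Promoters of 5 of the 10 members were in the table, those of Soat1, Nceh1, Lipa, Npc2 and Abca1. 6 patterns of letters were searched on both strands in these and in all 32851 promoters of the table. The paired element was searched only in the letters that Abca1 holds, 1 spelling of the arrangement that LXR binds with its partner RXR. Its presence in Abca1 is therefore no finding. It was found in 16 promoters in all (0.0487%), which is the share of this spelling and not of LXR elements. Other spellings of the pair were not searched. The E-box CACGTG was found in Nceh1 and Abca1 and in 7.15% of all promoters. The sterol element TCACNCCAC (1.24% of all) and the single receptor element AGGTCA (16.3%) were found in none of the 5. CCAAT, present in 37.4% of all promoters, was found in Soat1, Nceh1, Lipa and Npc2, and GGGCGG, present in 35.7%, in Soat1, Lipa, Npc2 and Abca1. A match is a run of letters and not a site shown to be bound.

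The level of each gene per kilobase was compared next, taking the length of all its exons. Npc2 was the most abundant member, at 540 CPM per kilobase over the 10 tumors, which is above 99.8% of the genes with a length. Soat1 followed with 33.7, above 90.3% of genes. Then came Lipa (16.8), Nceh1 (13.0), Stard4 (11.6), Npc1 (10.96), Scarb1 (8.41), Abca1 (8.24) and Soat2 (8.21), and Abcg1 was last with 1.66. Npc2 was above Soat1, and Soat2 above Abcg1, in 10 of 10 tumors, and Soat1 was above Lipa in 8 of 10. The 6 steps from Lipa to Soat2 held in 6 to 8 tumors each, so those neighbors did not differ beyond their spread. The order in the middle depends on what is taken as the length. Over the longest coding transcript Lipa came to 38.3, close to Soat1 at 39.4, and Scarb1 moved from place 7 to place 4 with 28.4. In the mean of all 10 tumors, Npc2, Soat1 and Lipa at the top, and Abca1, Soat2 and Abcg1 at the bottom, kept their places. That mean includes the KPG1 values by which Soat1 was chosen. Over all exons Soat1 was at 23.8 in KP and 43.5 in KPG1, and Lipa was at 18.4 and 15.2. The order over the longest transcript was not computed for KP alone.

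**Figure D2:**
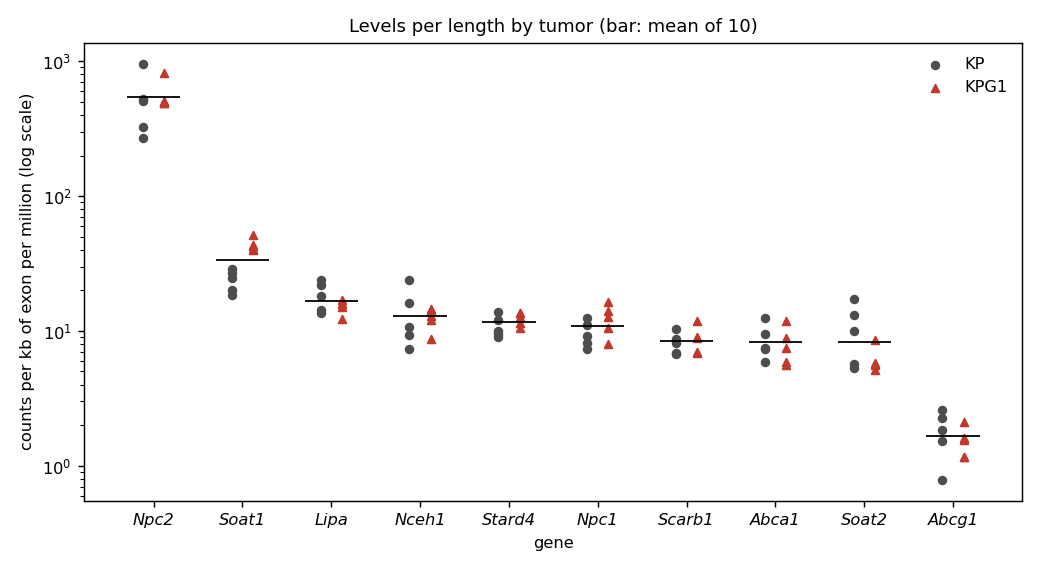
CPM per kilobase of exon (vertical axis, log scale) of the 10 genes (horizontal axis) in each tumor, with KP as grey circles, KPG1 as red triangles and the mean of 10 tumors as a bar. Npc2 lies far above the rest at a mean of 540, Soat1 is next at 33.7 and Abcg1 is lowest at 1.66.

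Of the 9 members other than Soat1, limma called 0 different between the groups, against 0.173% of all genes. None of the 9 had an unadjusted p under 0.05 in limma, where 5.26% of all genes were higher and 6.31% lower in KPG1 by that measure. The groups did not separate for any of the 9, against 1.05% of genes with all KPG1 values higher and 1.76% with all lower. Their median difference was -0.01 in log2, beside 0.02 for all genes tested. In edgeR and in DESeq2 the count called was also 0 of 9, and 1 of them, Soat2, had an unadjusted p under 0.05. The share of all genes under that value is given for limma alone.

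The other acyltransferase, Soat2 (ENSMUSG00000023045, chromosome 15, 102150526 to 102163469, plus strand), was at 4.48, 3.57, 3.65, 5.26 and 4.87 log2 CPM in KP 1 to KP 5. In KPG1 it was at 3.51, 3.65, 3.63, 3.68 and 4.25 log2 CPM. KP 4, KP 5 and KP 1 held the highest values, while KP 2 and KP 3 lay among the KPG1 tumors. Between the groups the log2 fold change of Soat2 was -0.66 (SE 0.33, 95% interval -1.38 to 0.06) with a limma adjusted p of 0.468. The unadjusted p was 0.0680 in limma, 0.0369 in edgeR and 0.0209 in DESeq2, with adjusted values of 0.364 and 0.223 in the latter. Soat2 rested on 376 to 1617 counts per library.

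Per kilobase, Soat1 exceeded Soat2 in every tumor. The ratio of the 2 levels was 2.68, 5.38, 4.38, 1.16 and 1.4 in KP 1 to KP 5 and 10.004, 7.03, 7.77, 7.42 and 4.76 in KPG1 1 to KPG1 5. All but KPG1 5 were above the highest KP tumor, KP 2. Since Soat1 was chosen for the difference between these groups, the ratio is a description as well.

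Of the ester hydrolases, Nceh1 (ENSMUSG00000027698, chromosome 3, 27182965 to 27284608, plus strand) varied more within KP than Lipa. KP 1 to KP 5 held 5.61, 5.81, 5.27, 6.41 and 6.98 log2 CPM, and KPG1 1 to KPG1 5 held 6.23, 5.98, 6.25, 6.07 and 5.51. KP 5 and KP 4 were above all KPG1 tumors and KP 3 was below them all, so the KPG1 values lay inside the KP range. The log2 fold change was -0.01 (SE 0.29, 95% interval -0.65 to 0.63, limma adjusted p 0.995), and without KP 5 it was 0.22.

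Lipa (ENSMUSG00000024781, chromosome 19, 34492318 to 34527474, minus strand), the lysosomal hydrolase, was at 6.95, 6.61, 6.53, 7.34 and 7.21 log2 CPM in KP and 6.84, 6.68, 6.37, 6.74 and 6.75 log2 CPM in KPG1. KP 4, KP 5 and KP 1 were again the highest 3 tumors, as for Soat2, and the groups overlapped. Lipa differed by a log2 fold change of -0.25 (SE 0.17, 95% interval -0.63 to 0.13, limma adjusted p 0.609), and it was -0.15 without KP 4.

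Of the genes of lysosomal egress, Npc2 (ENSMUSG00000021242, chromosome 12, 84754562 to 84773152, minus strand), the soluble carrier, was at 10.52, 11.47, 11.44, 10.79 and 12.35 log2 CPM in KP. In KPG1 it was at 12.12, 11.43, 11.39, 11.42 and 11.38 log2 CPM. KP 1 and KP 4 were lowest, KP 5 was highest, and 4 of the 5 KPG1 tumors lay between 11.38 and 11.43. For Npc2 the log2 fold change was 0.23 (SE 0.31, 95% interval -0.45 to 0.91, limma adjusted p 0.817). It was 0.035 without KP 1, 0.099 without KP 4, 0.075 without KPG1 1 and 0.47 without KP 5, and 0.0063 with the sample number as a covariate. The sample number nearly separates the groups, at 6, 11, 12, 15 and 16 in KP and 1, 4, 5, 9 and 10 in KPG1. A fit with it can therefore hardly tell number from group. With group means removed, Npc2 followed the alveolar type 2 marker sum (r = 0.88, n = 10) and ran against the proliferation sum (r = -0.85). The part of these cells in the Npc2 values was not tested.

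The membrane partner Npc1 (ENSMUSG00000024413, chromosome 18, 12189692 to 12236400, minus strand) was at 6.38, 6.96, 6.70, 6.53 and 7.14 log2 CPM in KP and 7.53, 7.32, 7.16, 6.89 and 6.50 log2 CPM in KPG1. The 3 highest tumors were KPG1, but KPG1 5 lay near the bottom of the KP range. The log2 fold change was 0.34 (SE 0.21, 95% interval -0.12 to 0.79, limma adjusted p 0.564), and it stayed above 0 under all 18 alternatives. Its size moved, to 0.11 with the sample number as a covariate, 0.21 without KPG1 1 and 0.48 without KPG1 5. Exons of Npc1 overlap those of Rmc1 on the opposite strand, which held 1714 to 3259 counts. Since the strand setting of the counting is not given in the sources used here, reads of the shared stretch could have been assigned to either gene or to none.

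Stard4 (ENSMUSG00000024378, chromosome 18, 33199355 to 33213862, minus strand), the cytosolic sterol carrier, was at 6.26, 5.64, 6.07, 5.73 and 5.80 log2 CPM in KP and 5.99, 5.87, 6.25, 6.16 and 6.24 log2 CPM in KPG1. KP 1 held the highest value of all 10 tumors and the other KP tumors, except KP 3, lay below the KPG1 values. For Stard4 the fitted difference was 0.20 (SE 0.14, 95% interval -0.11 to 0.52, limma adjusted p 0.621), and it was 0.13 without KP 2. Its within-group SD of 0.22 matched that of Soat1.

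Among the exporters, Abca1 (ENSMUSG00000015243, chromosome 4, 53030787 to 53159895, minus strand), which loads cholesterol onto lipid-poor apolipoproteins, was at 6.63, 6.27, 5.93, 6.25 and 7.02 log2 CPM in KP. In KPG1 it was at 6.53, 6.28, 6.94, 5.93 and 5.87 log2 CPM. High and low tumors occurred in both groups. The fitted difference in Abca1 was -0.11 (SE 0.24, 95% interval -0.64 to 0.42, limma adjusted p 0.893).

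Abcg1 (ENSMUSG00000024030, chromosome 17, 31057675 to 31117988, plus strand), which passes cholesterol to mature high-density lipoprotein, was the member with the lowest level. It was at 4.23, 3.48, 3.76, 4.05 and 2.53 log2 CPM in KP and 3.96, 3.09, 3.51, 3.08 and 3.55 log2 CPM in KPG1. KP 5, with 249 counts, was the lowest tumor, and the groups overlapped. The log2 fold change was -0.15 (SE 0.32, 95% interval -0.85 to 0.54, limma adjusted p 0.886), and when the labelled sample number was a covariate it was 0.45.

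Scarb1 (ENSMUSG00000037936, chromosome 5, 125277087 to 125341094, minus strand), the receptor that exchanges cholesterol with high-density lipoprotein in both directions, was at 5.86, 6.11, 6.46, 6.21 and 5.84 log2 CPM in KP and 6.64, 5.86, 6.25, 5.88 and 6.24 log2 CPM in KPG1. KPG1 1 was highest, and the remaining tumors were mixed. Scarb1 differed by 0.08 in log2 (SE 0.18, 95% interval -0.31 to 0.47, limma adjusted p 0.894). With group means removed it followed the endothelial marker sum (r = 0.80, n = 10), as Soat1 did.

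**Figure D3:**
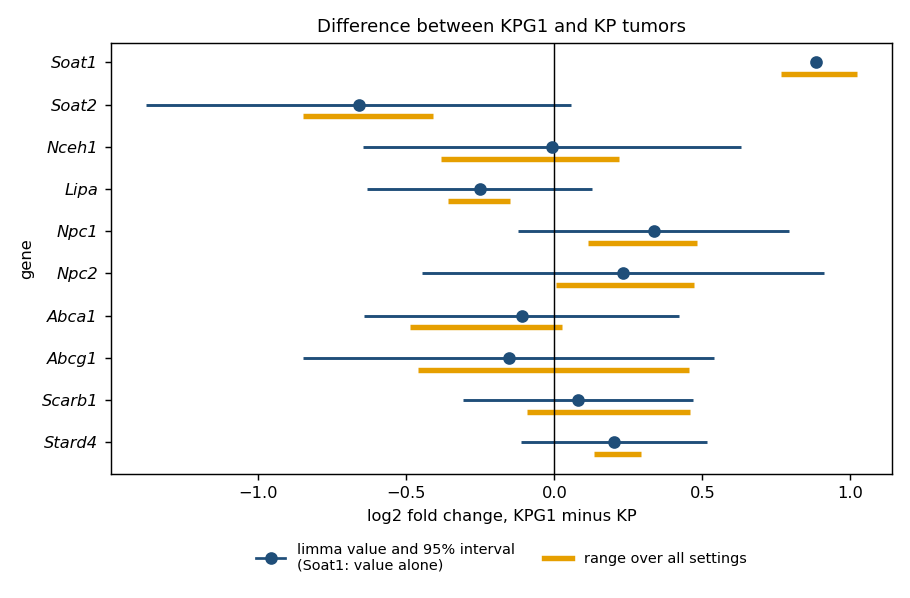
Log2 fold change, KPG1 minus KP (horizontal axis), of the 10 genes (vertical axis). Points are limma values, thin lines their 95% intervals (not drawn for Soat1, which was chosen by this value), and thick lines the range over all settings of the fit. The 9 intervals drawn all cross 0, and the range over settings crosses 0 for Nceh1, Abca1, Abcg1 and Scarb1.

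Each member was then compared with Soat1 across the 10 tumors, after the group means had been subtracted so that the difference between the groups did not enter. These correlations share the libraries and their depth and are descriptions with no test. Soat2 ran against Soat1 most of the 9 members, with a Pearson r of -0.74 (rho -0.76, n = 10), rank 15347 of 16215 genes ordered from most to least like Soat1. Nceh1 (r = -0.57) and Lipa (r = -0.56) also ran against it, and Abcg1 (r = 0.57) and Scarb1 (r = 0.40) ran with it. Stard4 (0.19), Npc1 (0.04), Abca1 (-0.15) and Npc2 (-0.18) were close to no relation. The middle 80% of all genes lay between -0.66 and 0.62, so Soat2 alone of the 9 lay outside it. A positive r was found for 4 of 9 members, and for 3 to 6 of 9 when each tumor in turn was left out.

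With the group means left in, the tumors farthest from the Soat1 median were KP 5 and KP 4, so the group difference entered this choice. Most of the relations above changed without these tumors. Without both, r with Soat1 was -0.30 for Soat2, 0.69 for Nceh1 and 0.28 for Lipa, so the last 2 changed sign. Abcg1 (0.48) and Scarb1 (0.44) kept theirs, Npc1 (0.53), Npc2 (0.52) and Abca1 (0.43) became positive or more so, and Stard4 came to -0.30. With KP 5 alone left out, r was 0.46 for Npc1, 0.55 for Npc2, 0.31 for Abca1 and -0.21 for Nceh1. Within KP the r of Soat1 with Soat2 was -0.78, and within KPG1 it was -0.54, with 5 tumors each. For Nceh1 these values were -0.84 and 0.59, opposite in sign. With the group means left in, r was -0.73 for Soat2, -0.24 for Nceh1 and 0.07 for Abcg1.

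**Figure D4:**
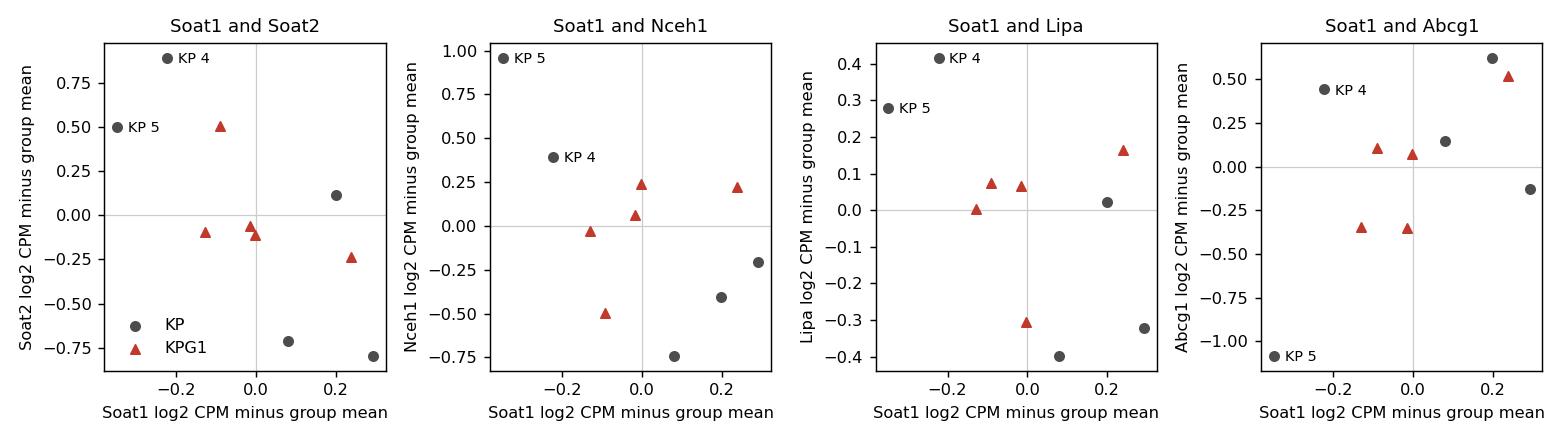
Deviation of Soat2, Nceh1, Lipa and Abcg1 (vertical axes, log2 CPM minus the group mean) against that of Soat1 (horizontal axes, same scale), with 1 point per tumor, KP as grey circles and KPG1 as red triangles. KP 4 and KP 5, named in each panel, hold the lowest Soat1 deviations. They lie at the high end for Soat2, Nceh1 and Lipa, and for Abcg1 KP 5 is lowest of all.

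Members other than Soat1 also varied together. Soat2 and Lipa had the highest r of the 45 pairs (0.85). Npc1 and Npc2 (0.75), which act one after the other in the lysosome, came next, and then Nceh1 and Abca1 (0.68). Like Npc2, Npc1 followed the alveolar type 2 marker sum (r = 0.63) and ran against the proliferation sum (r = -0.63). The part of these cells in the relation of Npc1 and Npc2 was not tested. Beside the pair of Soat1 and Soat2, the lowest values were those of Npc2 with Abcg1 (-0.63) and Npc1 with Stard4 (-0.62). Soat2 also followed the summed level of the 6 genes listed for adrenal and liver (r = 0.66), nearly all of it Apob and Alb, and Soat1 ran against that sum (r = -0.87). The list did not move as one, since Star, which brings cholesterol into mitochondria for steroid synthesis, had the opposite signs, with r = 0.85 for Soat1 and -0.78 for Soat2 at 1.24 to 4.62 CPM. With equal weight for each gene, r with the list was 0.04 for Soat1 and 0.23 for Soat2. The sum was 271 to 1825 CPM in KP, highest in KP 5, and 131 to 435 CPM in KPG1. Apob, the structural protein of lipoproteins that carry cholesteryl ester out of the cell, ranged from 5.88 CPM in KPG1 1 to 1403 CPM in KP 5. Apoa2 had at most 42 counts.

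**Figure D5:**
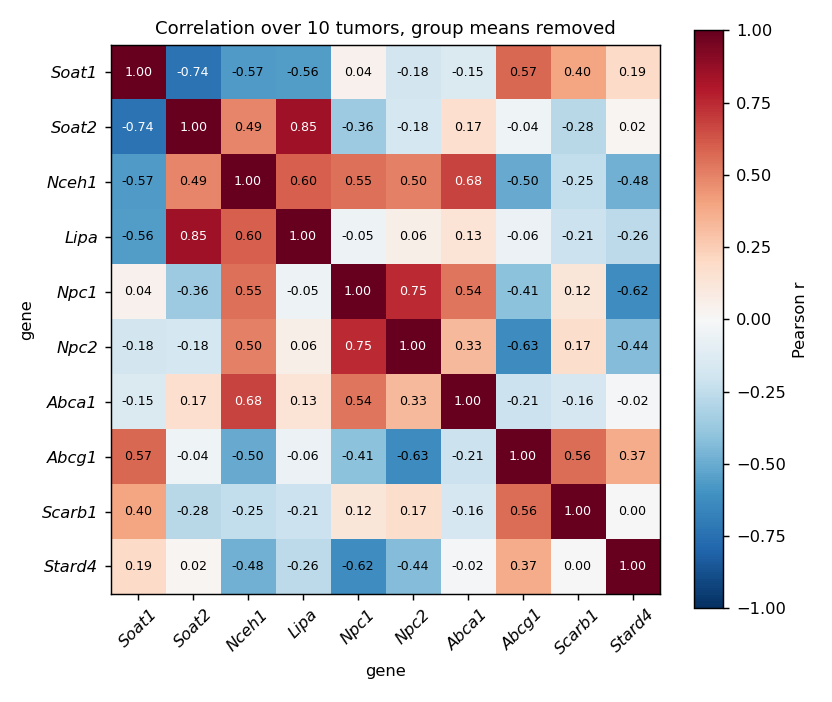
Pearson r of each pair of the 10 genes (both axes) over 10 tumors with group means removed, coloured from -1 (blue) to 1 (red). The first row holds Soat1, with -0.74 for Soat2 and 0.57 for Abcg1, and the highest value outside the diagonal is 0.85 for Soat2 and Lipa.

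Among the 10533 genes with a mean of at least 3 log2 CPM, those most like Soat1 with group means removed were Nlk (r = 0.96), Copg2 (0.94), Bloc1s5 (0.94), Evi5l (0.93) and BC042782 (0.92). Nlk is a protein kinase, Copg2 a subunit of the coat of vesicles that return to the endoplasmic reticulum, and Bloc1s5 a subunit of a complex that forms lysosome-related organelles. Those least like it were St13 (-0.98), Serpind1 (-0.97), Utp3 (-0.97), Arpc5l (-0.97) and Vps29 (-0.96). Each is the extreme of many genes over 10 tumors, so high values are found at these ranks whatever the gene.

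Around the members, 117 other genes of sterol handling were listed by role, and 112 of them were tested. limma called 0 of the 112, against 0.173% of all genes. An unadjusted p under 0.05 was found for 4 higher and 6 lower, beside 5.26% and 6.31% of all genes. In edgeR 0 were called, beside 11 higher and 29 lower of all 16216 genes, and 3 higher and 10 lower had an unadjusted p under 0.05. In DESeq2 3 were called, all lower, beside 125 higher and 423 lower of all 16216 genes. There 5 higher and 10 lower had an unadjusted p under 0.05. The shares of all genes with an unadjusted p under 0.05 are given for limma alone. The groups did not overlap for 1 gene higher (Cyp7b1) and 3 lower (among them Insig1 and Hsd3b7), beside 1.05% and 1.76% of all genes. The 112 had a median of 0.03 in log2, close to that of all genes, 0.02. Cel, Aadacl2, Abcg4, Abca6 and Plin1 did not pass the filter, with 17 counts or fewer in every library.

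Among genes of ester formation and hydrolysis, 0 of 10 tested had an unadjusted p under 0.05. Dgat2, which makes triglyceride for the same droplets, was at -0.73 (limma adjusted p 0.674). It was called lower when KP 5 was left out (-1.39, adjusted p 0.0220). That setting called 223 of all genes lower, against 18 with every library. Beside 8547 of all 16216 genes tested, 9 of 10 genes of the late endosome and lysosome were fitted higher in KPG1 (median of the list 0.17 in log2). Of these 9, 0 had an unadjusted p under 0.05. Lysosomal proteins such as Lamp1 (0.30) and Psap (0.16) were of this kind.

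Of 20 genes of intracellular sterol transfer, 1 had an unadjusted p under 0.05 in each direction. Acbd3, a Golgi protein, was at 0.32 in log2 (SE 0.11, limma adjusted p 0.2997), and Osbpl3, an oxysterol-binding protein relative, had -0.51 (SE 0.18, adjusted p 0.327). Of 11 tested genes of export and lipid acceptors, 8 had a lower fitted value (beside 7669 of all 16216 genes) and 0 an unadjusted p under 0.05. Apoe, which takes up exported cholesterol, was at -0.73 with an adjusted p of 0.474.

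Of the 10 genes of the LXR axis and its targets, 1 had an unadjusted p under 0.05, Lpcat3, which remodels phospholipids, at 0.33 (SE 0.14, limma adjusted p 0.388). Scd1, another target, was at 0.79 (adjusted p 0.464), while Abca1 and Abcg1, targets of the same receptor, were at -0.11 and -0.15. Of 26 genes of the SREBP2 axis and cholesterol synthesis, 12 had a higher and 14 a lower fitted value, and 2 had an unadjusted p under 0.05, both lower. Insig1, which holds the SREBP complex in the endoplasmic reticulum, was at 6.70, 6.47, 6.43, 6.38 and 6.46 log2 CPM in KP and 6.31, 5.53, 5.37, 5.36 and 6.25 log2 CPM in KPG1. All KPG1 values were below all KP values, though KPG1 1 and KPG1 5 came close to the lowest KP tumor. Its log2 fold change was -0.72 (SE 0.20, limma adjusted p 0.225), and that of Fdft1, which makes squalene, was -0.34 (SE 0.13, adjusted p 0.347).

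Of 7 oxysterol enzymes, Cyp7b1, a hydroxylase of oxysterols, was above all KP values in all KPG1 tumors, at a low level of 0.33 CPM in KP and 0.82 CPM in KPG1. Its log2 fold change was 1.20 (SE 0.37, limma adjusted p 0.248). Of 10 tested genes of the lipid droplet, Cidea (-2.0, adjusted p 0.314), Hilpda (-0.92, adjusted p 0.327) and Fitm1 (1.31, adjusted p 0.418) had an unadjusted p under 0.05. Cidea and Fitm1 were at 1.26 CPM or less in the mean of either group. Hilpda, a droplet protein known from hypoxia, was called lower in DESeq2 (adjusted p 0.0238), with a weight per library (0.0317) and without KP 5 (0.0214), and Cidea in DESeq2 (0.0112). Over all genes, lower calls numbered 423 in DESeq2, 177 with a weight per library and 223 without KP 5, against 18 in limma. Plin2, the main coat protein of droplets in most cells, was at 171 CPM in KP and 134 CPM in KPG1, with a log2 fold change of -0.26 (adjusted p 0.801).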

How the data were processed

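RNA of the CD45- fraction of 10 tumors was sequenced from one end with a stranded mRNA kit. Per the labels and the paper's methods, reads were trimmed with Cutadapt (1.4.2 in the submitters' processing notes), aligned to mm10 with HISAT2 and counted per gene. The notes name featureCounts 1.4.4, and the annotation release and strand setting are not given in the sources used here. The deposited counts are whole reads per Ensembl gene for 39017 genes. The joint table and the single files held equal values throughout (390170 of 390170). The authors' log2 table (TMM, voom) was not used. The engineered alleles that start the tumors and some genes of the pathway lists are not reported here.

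The members and the lists were chosen with earlier results of these data known, as was the set of alternatives. The study filtered on TPM, in place of which filterByExpr was applied. Counts were scaled by TMM (edgeR 4.0.16) and tested by voom and limma 3.58.1 (R 4.3.3) with the group as the only term, and p-values were adjusted by Benjamini-Hochberg over 16216 genes with a threshold of 0.05. Log2 CPM uses a prior count of 2. CPM are relative to TMM-scaled totals. Lengths, positions and overlaps came from GENCODE release M21 on mm10, and older symbols were matched for Adgre1, Cfap126, Chil3 and Msmo1. Named were all members, Slc2a1, overlapping genes, of the genes reported up to 3 per list with the smallest unadjusted p under 0.05, the 5 genes most and least like Soat1, and defining markers. Dgat2, Lamp1, Psap, Apoe, Scd1, Plin2 and Hsd3b7 were named after their values were seen. Alternatives were edgeR's quasi-likelihood test, DESeq2 1.42.0, RLE size factors, no filter, a mean CPM of at least 20, a weight per library, the replicate number as a block, the sample number as a covariate and leaving out each library. Since the sample number nearly separates the groups, the fit with it can hardly tell number from group. The limma fit with TMM scaling was tried on simulated data, and the alternative fits were not. Reads carry no molecular identifiers, so counting error alone understates the error. Members held from 249 counts (Abcg1 in KP 5) to 227975 counts (Npc2) per library.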

Additional observations from a re-analysis of the deposited data

Results flagged for a closer look

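In each group of 5 tumors, the distance of the highest and of the lowest value from its neighbor was divided by the whole range, for the members and the genes named from the pathway lists. Shares above 0.71, which chance alone gives in about 1 in 20 groups, mark a library that stands apart. They were found in 4 of 62 groups, beside 3.1 by chance. KPG1 5 stood apart for Soat2, with 4.25 log2 CPM where the remaining KPG1 tumors had 3.51 to 3.68 (share 0.761). KPG1 1 stood apart for Npc2, with 12.12 log2 CPM where the remaining KPG1 tumors had 11.38 to 11.43 (0.931). For Acbd3 it was KP 5, with 6.72 log2 CPM beside 6.36 to 6.42 (0.847), a value inside the KPG1 range. For Insig1 it was KP 1, with 6.70 log2 CPM beside 6.38 to 6.47 (0.722).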

How the results depend on the processing

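Soat1 kept its direction in all 18 alternatives but left the threshold in 12 of them, so that 0 members were called. These were RLE size factors, a mean CPM of at least 20, the replicate block, the sample number as a covariate, and the loss of any 1 library except KP 2 and KP 5 (range 0 to 1 members called). Genes called higher and lower, 10 and 18 in limma, numbered 125 and 423 in DESeq2, 5 and 31 at a mean CPM of at least 20, 51 and 177 with a weight per library, 4 and 4 with the sample number, and 3 to 71 and 1 to 223 with 1 library left out, the highest of each without KP 5. The lower genes were 29 in edgeR and 31 with no filter. The replicate block gave 4 higher and 1 lower. Same-numbered libraries of the groups correlated at -0.16 to 0.08, beside -0.15 to 0.21 for libraries of different numbers. These values gave no sign that the numbers pair the libraries, but they are too few to exclude it. Pathway genes called lower were 3 in DESeq2, 2 with a weight per library and 0 to 3 with 1 library left out (3 without KP 5).

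The sign turned for Nceh1 with a weight per library (0.17) and without KP 4 (0.09), KP 5 (0.22) or KPG1 5 (0.12), for Abca1 without KP 5 (0.026) or KPG1 5 (0.0017), for Abcg1 with the sample number (0.45) and without KP 1 (0.0099), and for Scarb1 with library weights (-0.094) and without KPG1 1 (-0.052). With 1 library left out, these log2 fold changes ranged from -0.20 to 0.22 for Nceh1, -0.26 to 0.026 for Abca1, -0.46 to 0.0099 for Abcg1 and -0.052 to 0.16 for Scarb1. Without a change of sign, the value moved by over 1.5 times with a weight per library for Soat2 (-0.41), Lipa (-0.15), Abca1 (-0.037) and Abcg1 (-0.39), with the sample number for Abca1 (-0.49), Nceh1 (-0.38), Npc1 (0.11), Npc2 (0.0063) and Scarb1 (0.46), in edgeR and DESeq2 for Npc2 (0.12 and 0.11), Abcg1 (-0.25 and -0.26) and Nceh1 (-0.12 and -0.13), and for Nceh1 also with RLE size factors (-0.020), no filter (-0.0014) and a mean CPM of at least 20 (-0.038). With 1 library left out the other members ranged from 0.21 to 0.48 (Npc1), 0.035 to 0.47 (Npc2), -0.36 to -0.15 (Lipa), 0.13 to 0.29 (Stard4) and -0.85 to -0.44 (Soat2). Over the longest coding transcript, a length added after seeing the data, the levels became 38.3 for Lipa, 23.7 for Npc1, 891 for Npc2 and 28.4 for Scarb1. Scalings moved the median over all genes by less than 0.1 in log2. Causes of these changes were not tested. A stricter filter also tests fewer genes and the loss of a library leaves fewer samples, and the part of either was not tested. Among the members depth limits Abcg1 most, with 249 to 778 counts.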
